A study of Sus scrofa with 6 samples.

Results

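Genes of homologous recombination, the Fanconi pathway and mismatch repair, with the damage checkpoint and the end joining genes that act on the same breaks, were compared between pig epiblast stem cells and pig fibroblasts. The 51 genes were listed by symbol, and 47 of them were found among the 20131 genes of the table and are described here. FANCB, RAD51D, XRCC3 and XRCC4 matched no row by symbol and were not analysed here. The pgEpiSC (pig pre-gastrulation epiblast stem cells) came from epiblast of embryos at embryonic day 10 and gave 4 libraries. The pEF (porcine embryonic fibroblasts) came from fetuses at embryonic day 30 and gave 2 libraries. All 6 were strand-specific libraries of rRNA-depleted total RNA, and the labels name no treatment, allele or breed for either group. The labels do not say how many cell lines or animals stand behind the replicates, so p-values measure only the spread between these libraries.

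Double-strand breaks are repaired either by copying an intact sister chromatid, which is homologous recombination, or by joining the ends directly. Recombination starts when the ends are resected, and BRCA2 and its partners then load the strand-exchange recombinase on the exposed strand, a route open mainly in S and G2 phase. The Fanconi pathway removes crosslinks between the DNA strands and hands the resulting breaks to recombination, while mismatch repair corrects errors left by the replicative polymerases. Pluripotent cells of other species are known for short cell cycles with a long share of S phase and for frequent use of recombination.

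Expression was given as TPM, transcripts per 1000000, a unit meant to correct for transcript length and for the total of each library. The columns did not sum to 1000000, so the listed values had no common total. Column sums ranged over 157288 to 320206 TPM for pgEpiSC, against 93556 and 145611 TPM for pEF. Median-ratio factors, which give the level of the typical gene in a library, were 0.720 and 0.733 for pgEpiSC libraries 1 and 4 and 2.17 and 1.51 for libraries 2 and 3, against 0.592 for pEF library 1 and 0.979 for library 2. Libraries 2 and 3 of pgEpiSC thus stood above libraries 1 and 4 for most genes. Calls and log2 folds below are mostly given both as deposited and after division by these factors, called scaling. Levels in TPM and folds between means are as deposited unless stated. Over the 10424 genes tested, the log2 fold (pgEpiSC over pEF, on log2(TPM + 1)) had a median of 0.48 as deposited and 0.06 after scaling. Folds on this scale understate the change of low genes. TPM keeps no read depth, so the depth of each library is unknown. All 10 epiblast markers were higher in pgEpiSC, where they summed to between 529.9 and 2092 TPM against 0.204 and 0.784 TPM in pEF. All 8 fibroblast markers found were lower in pgEpiSC, at a sum of 3.23 to 10.1 TPM against 718 and 1702 TPM in pEF. Endothelial markers stayed at or under 0.428 TPM in pgEpiSC and 2.16 TPM in pEF, and those of blood at or under 0.875 TPM in pgEpiSC and 0.148 TPM in pEF. Other embryonic lineages gave mixed markers. KRT7 of the trophectoderm list reached 10.7 TPM in pgEpiSC and APOA1 of the hypoblast list 9.03 TPM, both called higher on both scales. FOXA2 of the hypoblast list reached 3.73 TPM in pgEpiSC and was called higher on both scales, and TFAP2C of the trophectoderm list reached 3.34 TPM and was called higher after scaling. The other genes found of these lists stayed under 1 TPM in the pgEpiSC libraries. The part of such cells in the levels below was not tested.

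Most repair genes had a higher mean level in pgEpiSC, and 19 of the 47 passed the test as deposited and 29 after scaling. The mean TPM was higher in pgEpiSC for 44 of 47 members, the exceptions being RAD52, XRCC6 and LIG4. After scaling the log2 fold was positive for 42. The share of all tested genes with a higher mean was not counted. Their median log2 fold was 0.48 as deposited and 0.06 after scaling, so the count as deposited includes a general shift. All 47 passed the filter of 1 TPM in 2 libraries, 20 of them through pgEpiSC alone, so a higher level in pgEpiSC was built into the choice of these 20. They make up 6 of the 19 higher calls as deposited and 16 of the 29 after scaling. As deposited 19 members were called higher and 0 lower in pgEpiSC (limma with Benjamini-Hochberg adjustment over all tested genes, threshold 0.05), beside 18.0% of all tested genes higher and 9.43% lower. At an unadjusted p below 0.05, 28 members were higher and 0 lower, beside 27.2% and 11.7% of all tested genes. How many of these 28 passed the filter through pgEpiSC alone was not counted. After scaling 29 were called higher and 3 lower, beside 28.6% and 29.8% of all tested genes. The median log2 fold of the members was 1.14 as deposited and 0.80 after scaling.

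The 19 genes called higher as deposited were also called higher after scaling, after rescaling to a total of 1000000 and after quantile normalization. Of the other 10 called after scaling, FANCE, RECQL4, MSH3 and RAD54L were not called after rescaling, at log2 folds of 1.03, 1.11, 0.69 and 1.04 (limma adjusted p = 0.0638, 0.0701, 0.176 and 0.108). The calls as deposited of the 19 depended on the libraries: 1 member, CHEK1, was called without pEF replicate 1, 6 without pEF replicate 2 and 10 without pgEpiSC replicate 3. After scaling the 19 were called in each of the 6 fits with 1 library left out. All 19 were also called as deposited in a fit without pgEpiSC libraries 2 and 3 and in a fit without libraries 1 and 4, which were chosen after seeing the data. The groups did not overlap, with every pgEpiSC library above both pEF libraries, for 34 members as deposited and 36 after scaling, beside 36.6% and 36.3% of all tested genes. Members that passed the filter through pgEpiSC alone add to both counts of members, and their choice favoured this order. Every pgEpiSC library was below both pEF libraries for 0 members as deposited and 3 after scaling, beside 12.9% and 34.6% of all tested genes. In bulk libraries, more cells that express a gene and more RNA of that gene per cell cannot be told apart.

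**Figure D1:**
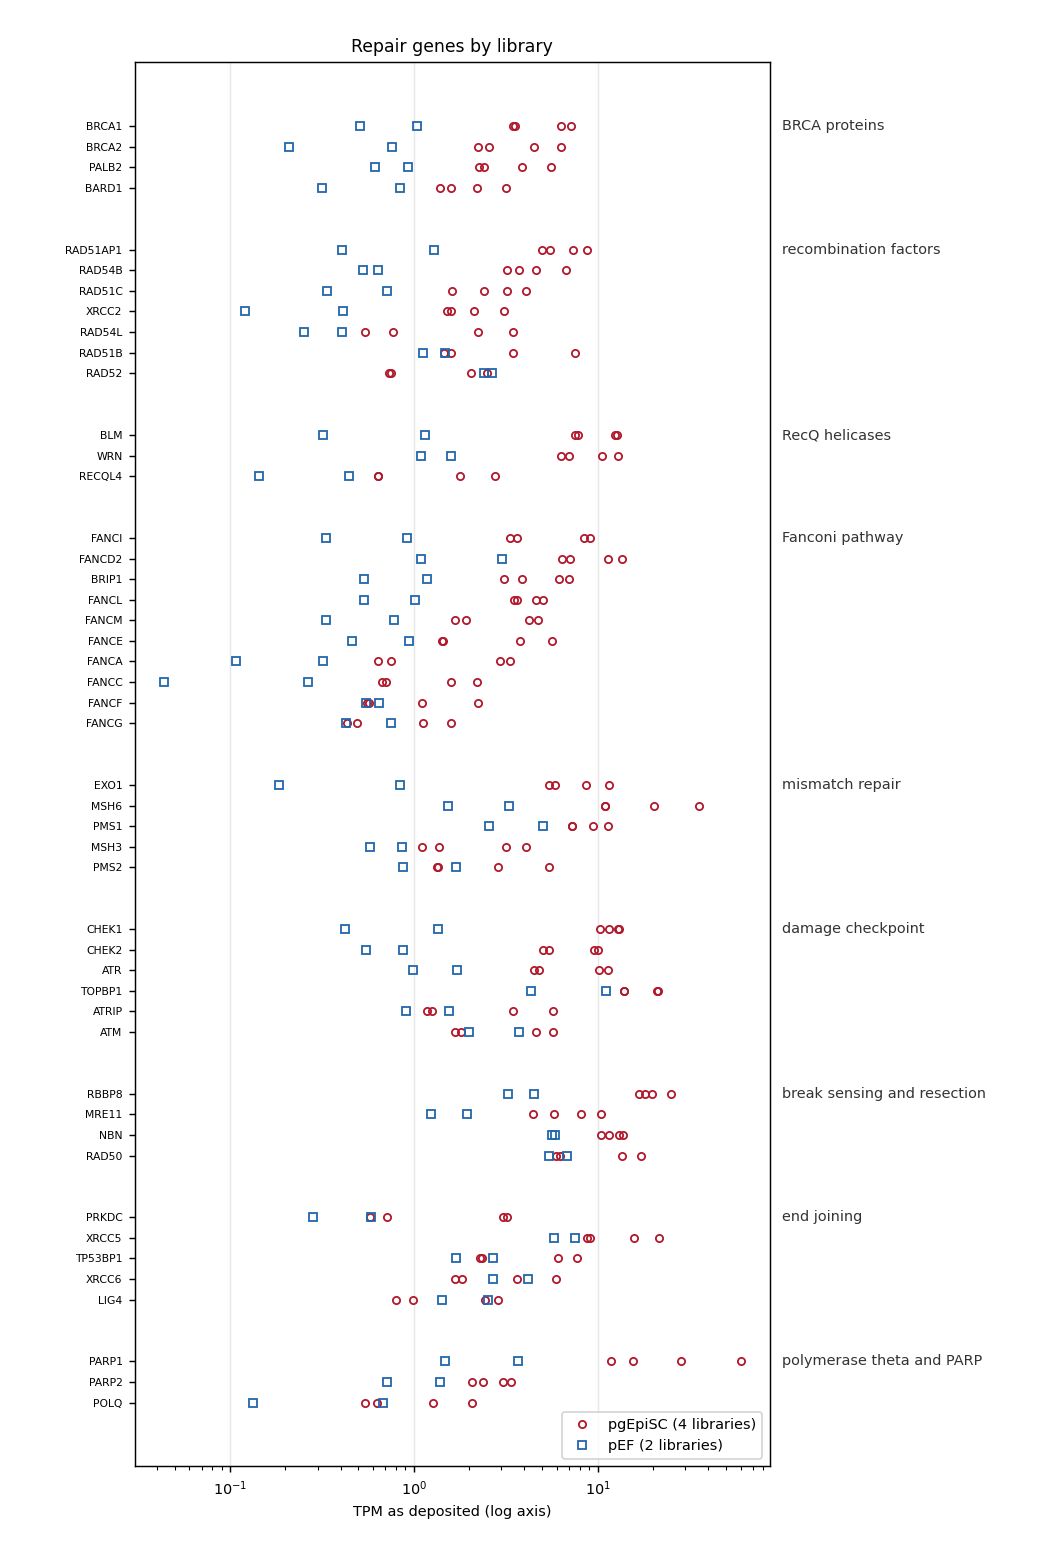
TPM as deposited (log axis) of the 47 repair genes, grouped by role and ordered within a group by log2 fold. Circles are the 4 pgEpiSC libraries and squares the 2 pEF libraries; the circles lie right of both squares for 34 genes, and circles and squares mix for RAD52, RAD51B, ATM, RAD50, XRCC6 and LIG4, among others.

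The most abundant members were as follows. In pgEpiSC, PARP1 averaged 29.1 ± 21.9 TPM (SD, n = 4), followed by RBBP8 at 19.9 ± 3.60, MSH6 at 19.5 ± 11.7 and TOPBP1 at 17.6 ± 4.21 TPM. These neighbours lay within 1 SD of PARP1, whose libraries spread widely. In pEF, TOPBP1 led at 7.71 ± 4.75 TPM (SD, n = 2), followed by XRCC5 at 6.67 ± 1.18, RAD50 at 6.14 ± 0.967 and NBN at 5.79 ± 0.138 TPM, whose levels did not differ beyond the spread of TOPBP1. Members that averaged 10 TPM or more numbered 9 in pgEpiSC and 0 in pEF, and those under 1 TPM numbered 1 in pgEpiSC, FANCG, and 26 in pEF. These counts are as deposited, and the shares of all tested genes at such levels were not counted. The 26 include the 20 members that passed the filter through pgEpiSC alone, whose low pEF levels were built into their choice.

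Among the BRCA proteins, the scaffold of recombination, BRCA1 and BRCA2 were called higher on both scales, and PALB2 and BARD1 after scaling alone. BRCA1, a ubiquitin ligase that favours resection of breaks, had 3.56, 7.14, 6.36 and 3.46 TPM in pgEpiSC libraries 1 to 4, against 0.509 and 1.05 TPM in pEF libraries 1 and 2. The lowest pgEpiSC library lay above the highest pEF library, and the log2 fold was 1.75 ± 0.56 (SE, limma adjusted p = 0.0165) as deposited and 1.42 ± 0.17 (adjusted p = 0.000289) after scaling. BARD1, the obligate partner of BRCA1, had 1.39, 3.17, 2.22 and 1.60 TPM in pgEpiSC libraries 1 to 4, against 0.319 and 0.836 TPM in pEF libraries 1 and 2. Its log2 fold was 0.96 ± 0.48 (SE, limma adjusted p = 0.130) as deposited and 0.70 ± 0.16 (adjusted p = 0.00714) after scaling, without overlap of the groups. PALB2, which bridges BRCA1 and BRCA2, had 2.41, 5.60, 3.89 and 2.28 TPM in pgEpiSC libraries 1 to 4, against 0.615 and 0.932 TPM in pEF libraries 1 and 2. The log2 fold of PALB2 was 1.30 ± 0.54 (SE, limma adjusted p = 0.0667) as deposited and 0.96 ± 0.14 (adjusted p = 0.000815) after scaling. BRCA2, the loader of the recombinase, had 2.24, 4.49, 6.29 and 2.56 TPM in pgEpiSC libraries 1 to 4, against 0.208 and 0.766 TPM in pEF libraries 1 and 2, with a log2 fold of 1.67 ± 0.54 (SE, limma adjusted p = 0.0190) as deposited and 1.41 ± 0.23 (adjusted p = 0.00118) after scaling. Libraries 2 and 3 were the high ones of pgEpiSC for all 4 genes. BARD1, PALB2 and BRCA2 passed the filter through pgEpiSC alone, so the low pEF levels were built into their choice. The BRCA1 and BRCA2 calls as deposited were lost without pgEpiSC replicate 3 or either pEF library, the folds over the 6 omissions lying between 1.39 and 1.97. That of BARD1 after scaling was lost without pEF replicate 1 (0.58, adjusted p = 0.0689). In the RefSeq gene table of Sscrofa11.1 the span of BRCA1 overlaps that of NBR1. Such overlaps affect 22 of the 46 members placed there, and how strand entered the quantification is not given in the sources used here.

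Of the 7 recombination factors, which act around the strand-exchange filament, 3 were called higher in pgEpiSC as deposited and 5 after scaling, where RAD52 was called lower. These counts stand beside 18.0% of all tested genes higher as deposited and 28.6% after scaling, where 29.8% were lower. RAD51AP1, which binds the filament and aids pairing, had 5.01, 7.35, 8.74 and 5.53 TPM in pgEpiSC libraries 1 to 4, against 0.407 and 1.28 TPM in pEF libraries 1 and 2, and a log2 fold of 2.07 ± 0.56 (SE, limma adjusted p = 0.00463) as deposited and 1.77 ± 0.28 (adjusted p = 0.00121) after scaling. RAD54B, a DNA translocase of the same step, had 3.21, 4.64, 6.75 and 3.76 TPM in pgEpiSC libraries 1 to 4, against 0.637 and 0.531 TPM in pEF libraries 1 and 2, and its log2 fold was 1.78 ± 0.55 (SE, limma adjusted p = 0.0132) as deposited and 1.45 ± 0.28 (adjusted p = 0.00296) after scaling. In both genes every pgEpiSC library exceeded both pEF libraries several times over. XRCC2, a paralog of the recombinase, had 1.59, 3.08, 2.13 and 1.52 TPM in pgEpiSC libraries 1 to 4, against 0.121 and 0.415 TPM in pEF libraries 1 and 2, and its log2 fold was 1.26 ± 0.46 (SE, limma adjusted p = 0.0340) as deposited and 1.07 ± 0.17 (adjusted p = 0.00120) after scaling. RAD51C, another paralog, had 1.62, 3.23, 4.10 and 2.40 TPM in pgEpiSC libraries 1 to 4, against 0.335 and 0.717 TPM in pEF libraries 1 and 2, with a log2 fold of 1.30 ± 0.51 (SE, limma adjusted p = 0.0527) as deposited and 1.03 ± 0.22 (adjusted p = 0.00445) after scaling. Both paralogs were under 1 TPM in the pEF libraries and above 1 TPM in each pgEpiSC library. XRCC2, RAD51C, RAD54B and RAD54L passed the filter through pgEpiSC alone, so the low pEF levels were built into their choice. RAD54L, the second translocase, reached 0.545 to 3.46 TPM in pgEpiSC against 0.251 and 0.409 TPM in pEF and was called higher after scaling alone (0.63), a call lost without either pEF library (0.66 and 0.62). RAD51B was not called on either scale (0.78 as deposited and 0.37 after scaling), and its library 3 of pgEpiSC, at 7.53 TPM, stood above the other 3 at 1.47 to 3.45 TPM and both pEF libraries at 1.12 and 1.48 TPM.

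RAD52, which anneals single strands and in mammals serves as a backup of BRCA2, had 0.752, 2.50, 2.04 and 0.731 TPM in pgEpiSC libraries 1 to 4, against 2.40 and 2.68 TPM in pEF libraries 1 and 2. The groups overlapped as deposited: pgEpiSC libraries 2 and 3 came close to pEF, while libraries 1 and 4 lay far below. The log2 fold was -0.57 ± 0.51 (SE, limma adjusted p = 0.422) as deposited and -1.03 ± 0.16 (adjusted p = 0.00109) after scaling, and after scaling the groups no longer overlapped. RAD52 was thus called lower in pgEpiSC after scaling, in each of the 6 fits with 1 library left out, and was not called as deposited. Its annotated span overlaps that of WNK1. The calls as deposited of XRCC2 and RAD54B were lost without pgEpiSC replicate 3 or either pEF library, and that of RAD51AP1 without either pEF library, the folds lying between 1.10 and 2.42.

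The RecQ helicases, which unwind recombination intermediates and stalled forks, were all called higher in pgEpiSC after scaling, and BLM and WRN also as deposited. Of all tested genes, 28.6% were called higher after scaling and 18.0% as deposited. BLM, which dissolves double Holliday junctions, had 7.55, 12.5, 12.7 and 7.86 TPM in pgEpiSC libraries 1 to 4, against 0.322 and 1.15 TPM in pEF libraries 1 and 2. The means as deposited stood 13.8-fold apart, and the log2 fold was 2.69 ± 0.55 (SE, limma adjusted p = 0.000254) as deposited and 2.39 ± 0.26 (adjusted p = 0.000187) after scaling. WRN, a helicase with an exonuclease domain, had 6.35, 10.6, 12.9 and 6.98 TPM in pgEpiSC libraries 1 to 4, against 1.10 and 1.59 TPM in pEF libraries 1 and 2, and its log2 fold was 2.08 ± 0.55 (SE, limma adjusted p = 0.00397) as deposited and 1.67 ± 0.25 (adjusted p = 0.000834) after scaling. RECQL4, needed for replication initiation, had 0.636, 2.78, 1.79 and 0.641 TPM in pgEpiSC libraries 1 to 4, against 0.145 and 0.443 TPM in pEF libraries 1 and 2. The groups did not overlap in any of the 3, and the log2 fold of RECQL4 was 0.84 ± 0.42 (SE, limma adjusted p = 0.128) as deposited and 0.61 ± 0.15 (adjusted p = 0.00818) after scaling. RECQL4 passed the filter through pgEpiSC alone, so its low pEF levels were built into its choice. Without pEF replicate 1 the calls of BLM (2.34, adjusted p = 0.0624) and WRN (1.93) were lost as deposited and that of RECQL4 (0.52) after scaling, and without pEF replicate 2 that of WRN (2.23) as deposited.

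**Figure D2:**
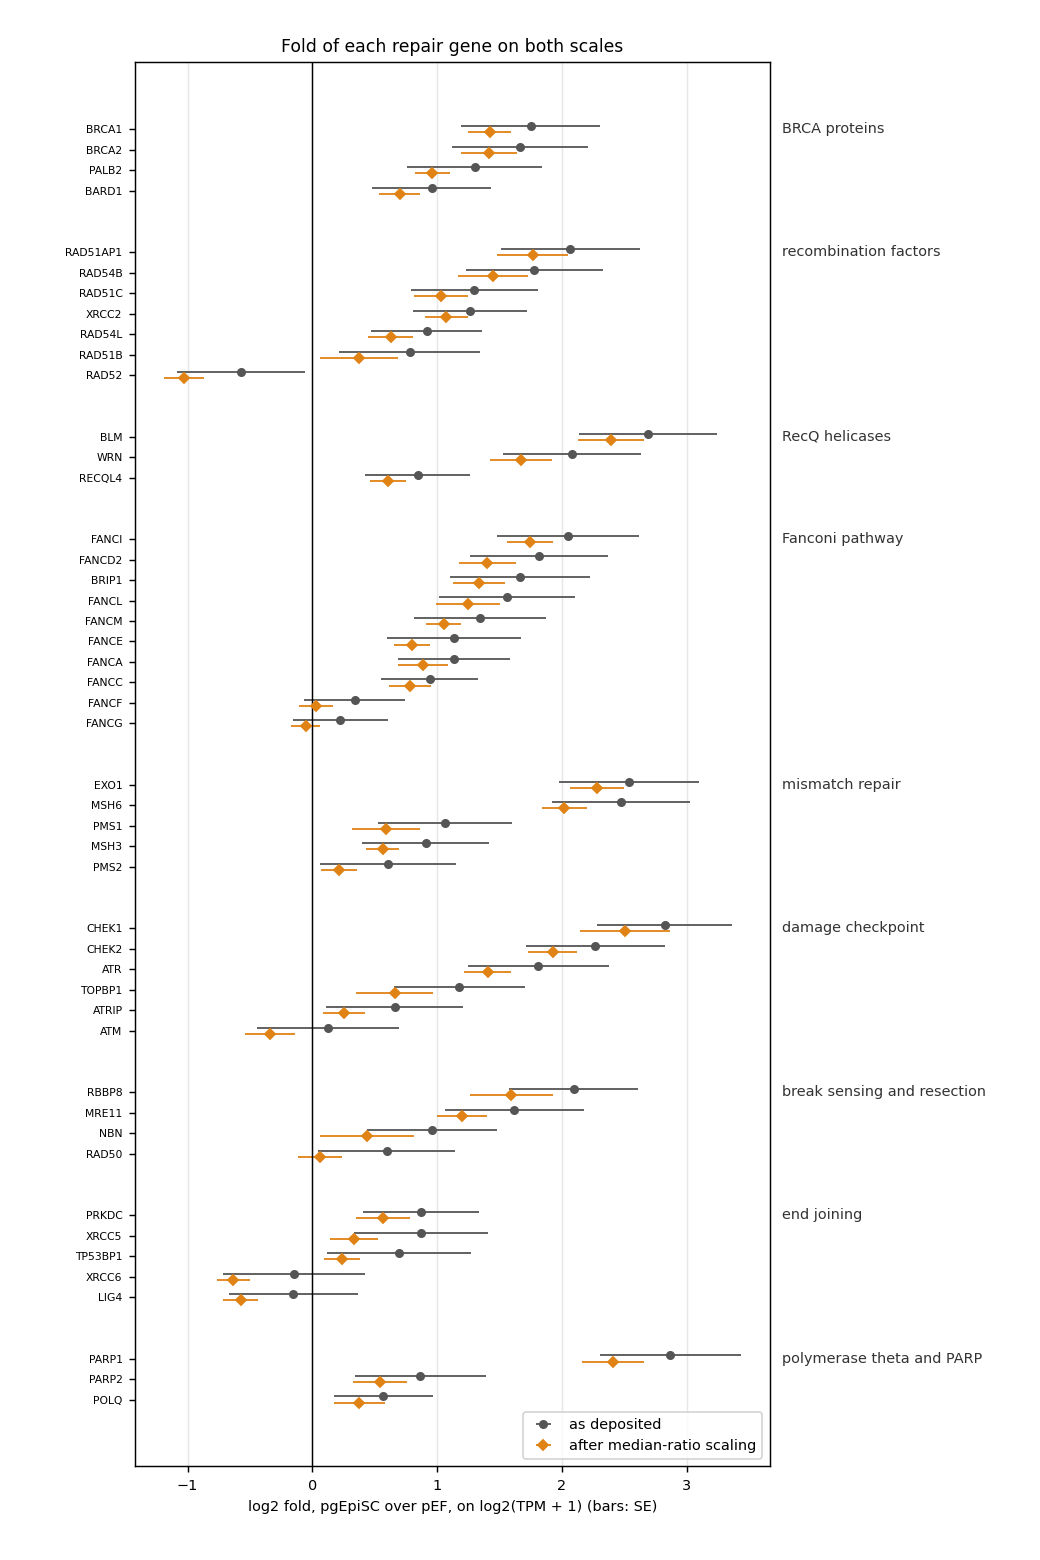
Log2 fold of the 47 repair genes, pgEpiSC over pEF, on log2(TPM + 1) with SE bars, as deposited (circles) and after median-ratio scaling (diamonds). Scaling moves every gene to the left and narrows its SE; RAD52, XRCC6 and LIG4 are the genes called lower after scaling.

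In the Fanconi pathway the central pair, the downstream helicase and the catalytic core subunit were called higher in pgEpiSC on both scales. The pathway works through a core ubiquitin ligase complex (FANCA, FANCC, FANCE, FANCF, FANCG and FANCL here, anchored by FANCM), which marks FANCI and FANCD2 at a crosslink. FANCI had 3.67, 8.47, 9.06 and 3.35 TPM in pgEpiSC libraries 1 to 4, against 0.332 and 0.922 TPM in pEF libraries 1 and 2, with a log2 fold of 2.05 ± 0.57 (SE, limma adjusted p = 0.00598) as deposited and 1.75 ± 0.19 (adjusted p = 0.000153) after scaling. FANCD2 had 7.12, 13.6, 11.4 and 6.43 TPM in pgEpiSC libraries 1 to 4, against 1.10 and 3.02 TPM in pEF libraries 1 and 2, and its log2 fold was 1.82 ± 0.55 (SE, limma adjusted p = 0.0123) as deposited and 1.40 ± 0.23 (adjusted p = 0.00125) after scaling. Both partners had their highest values in pgEpiSC libraries 2 and 3, and every pgEpiSC library was above both pEF libraries. BRIP1, the FANCJ helicase that binds BRCA1, had 3.10, 6.16, 7.01 and 3.86 TPM in pgEpiSC libraries 1 to 4, against 0.536 and 1.19 TPM in pEF libraries 1 and 2, and a log2 fold of 1.67 ± 0.56 (SE, limma adjusted p = 0.0228) as deposited and 1.34 ± 0.21 (adjusted p = 0.00113) after scaling. FANCL, the catalytic subunit of the core, had 3.50, 5.05, 4.64 and 3.67 TPM in pgEpiSC libraries 1 to 4, against 0.537 and 1.01 TPM in pEF libraries 1 and 2, and a log2 fold of 1.56 ± 0.54 (SE, limma adjusted p = 0.0291) as deposited and 1.25 ± 0.26 (adjusted p = 0.00395) after scaling. These 4 of 10 members were called higher as deposited, beside 18.0% of all tested genes. After scaling 8 of the 10 were called higher, beside 28.6%. FANCM, FANCE, FANCA and FANCC were called higher after scaling alone, at log2 folds of 1.05, 0.80, 0.89 and 0.78, and had 1.29 to 3.14 TPM on average in pgEpiSC and 0.155 to 0.704 TPM in pEF. The core subunits FANCF and FANCG overlapped between the groups and were not called on either scale, at log2 folds of 0.34 as deposited and 0.03 after scaling for FANCF and 0.22 as deposited and -0.05 after scaling for FANCG. Of the 10 members, 7 were under 1 TPM in both pEF libraries and passed the filter through pgEpiSC alone. The calls as deposited of FANCD2, BRIP1 and FANCL were lost without pgEpiSC replicate 3 or either pEF library and that of FANCI without either pEF library, the folds lying between 1.35 and 2.32. The span of FANCD2 overlaps EMC3, that of FANCI overlaps POLG and that of FANCL overlaps VRK2.

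In mismatch repair, EXO1 and MSH6 were called higher on both scales and the MutL subunits were not called on either. EXO1, the exonuclease that removes the faulty strand and also resects breaks, had 5.86, 11.6, 8.66 and 5.47 TPM in pgEpiSC libraries 1 to 4, against 0.184 and 0.839 TPM in pEF libraries 1 and 2. Its mean as deposited was 15.4-fold higher in pgEpiSC, with both pEF libraries under 1 TPM, so it passed the filter through pgEpiSC alone. The log2 fold of EXO1 was 2.54 ± 0.56 (SE, limma adjusted p = 0.000629) as deposited and 2.28 ± 0.22 (adjusted p = 8.91e-05) after scaling. MSH6, the MutS subunit for base mismatches and small loops, had 11.02, 35.7, 20.3 and 10.96 TPM in pgEpiSC libraries 1 to 4, against 1.53 and 3.28 TPM in pEF libraries 1 and 2, and its log2 fold was 2.48 ± 0.55 (SE, limma adjusted p = 0.000703) as deposited and 2.02 ± 0.18 (adjusted p = 6.07e-05) after scaling. For both genes every pgEpiSC library was above both pEF libraries. MSH3, the MutS subunit for larger loops, had 1.11, 4.09, 3.17 and 1.37 TPM in pgEpiSC libraries 1 to 4, against 0.575 and 0.858 TPM in pEF libraries 1 and 2, and its log2 fold was 0.91 ± 0.51 (SE, limma adjusted p = 0.181) as deposited and 0.56 ± 0.13 (adjusted p = 0.00784) after scaling. PMS1, a minor MutL subunit, had 7.25, 11.4, 9.47 and 7.30 TPM in pgEpiSC libraries 1 to 4, against 2.57 and 5.06 TPM in pEF libraries 1 and 2, and its log2 fold was 1.06 ± 0.54 (SE, limma adjusted p = 0.139) as deposited and 0.59 ± 0.27 (adjusted p = 0.0957) after scaling. The groups did not overlap for either gene, and the higher call of MSH3 after scaling was lost without pEF replicate 2 (0.52). MSH3, like EXO1, passed the filter through pgEpiSC alone. PMS2, the main MutL endonuclease subunit, averaged 2.75 ± 1.93 TPM in pgEpiSC (SD, n = 4), against 1.28 ± 0.573 TPM in pEF (SD, n = 2), overlapped as deposited and had log2 folds of 0.61 as deposited and 0.21 after scaling, not called. Without pEF replicate 1 the folds of EXO1 and MSH6 as deposited were 2.22 and 2.10 and were not called (adjusted p = 0.0995 and 0.113), and PMS1 was called higher after scaling without pgEpiSC replicate 2 (0.72). In the annotation the span of MSH6 overlaps that of FBXO11.

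Among the checkpoint genes, ATR and CHEK1, the kinases of stalled forks and resected ends, and CHEK2 were called higher in pgEpiSC on both scales, while ATM, the kinase of unresected breaks, was called on neither. CHEK1 had 10.3, 13.1, 13.01 and 11.5 TPM in pgEpiSC libraries 1 to 4, against 0.421 and 1.35 TPM in pEF libraries 1 and 2. The 4 pgEpiSC libraries lay close together as deposited and ran from 6.04 to 15.7 TPM after scaling, and the log2 fold was 2.83 ± 0.54 (SE, limma adjusted p = 0.000102) as deposited and 2.51 ± 0.36 (adjusted p = 0.000679) after scaling. CHEK2, the effector of ATM, had 5.46, 10.02, 9.55 and 5.08 TPM in pgEpiSC libraries 1 to 4, against 0.552 and 0.876 TPM in pEF libraries 1 and 2, with a log2 fold of 2.27 ± 0.56 (SE, limma adjusted p = 0.00202) as deposited and 1.93 ± 0.19 (adjusted p = 0.000117) after scaling. ATR had 4.81, 10.2, 11.4 and 4.53 TPM in pgEpiSC libraries 1 to 4, against 0.995 and 1.72 TPM in pEF libraries 1 and 2, with a log2 fold of 1.81 ± 0.57 (SE, limma adjusted p = 0.0143) as deposited and 1.41 ± 0.19 (adjusted p = 0.000495) after scaling. For these 3 genes the groups did not overlap. CHEK2 passed the filter through pgEpiSC alone, so its low pEF levels were built into its choice. TOPBP1, an activator of ATR, had 13.9, 21.2, 21.2 and 13.97 TPM in pgEpiSC libraries 1 to 4, against 4.34 and 11.1 TPM in pEF libraries 1 and 2, and its log2 fold was 1.18 ± 0.52 (SE, limma adjusted p = 0.0884) as deposited and 0.66 ± 0.31 (adjusted p = 0.101) after scaling. ATM had 1.80, 4.63, 5.75 and 1.69 TPM in pgEpiSC libraries 1 to 4, against 2.01 and 3.73 TPM in pEF libraries 1 and 2. The ATM libraries of the 2 groups overlapped, with log2 folds of 0.13 ± 0.57 (SE, limma adjusted p = 0.889) as deposited and -0.34 ± 0.20 (adjusted p = 0.174) after scaling. ATRIP, the partner that brings ATR to exposed strands, averaged 2.90 ± 2.15 TPM in pgEpiSC (SD, n = 4), against 1.22 ± 0.455 TPM in pEF (SD, n = 2) and was not called (0.66 as deposited and 0.25 after scaling). Its span overlaps TREX1. Without pgEpiSC replicate 3 or either pEF library the call of ATR as deposited was lost, and without either pEF library that of CHEK2, at folds between 1.59 and 2.41. Without pgEpiSC replicate 3 ATM was called lower after scaling (-0.47), and without pgEpiSC replicate 2 TOPBP1 was called higher (0.84).

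At the step of break sensing and resection, RBBP8 and MRE11 were called higher in pgEpiSC on both scales and RAD50 and NBN on neither. MRE11, RAD50 and NBN form one complex, in which MRE11 is the nuclease and RAD50 the ATPase that tethers the ends. RBBP8, the cofactor CtIP that starts resection, had 16.8, 25.00, 19.8 and 18.1 TPM in pgEpiSC libraries 1 to 4, against 3.26 and 4.50 TPM in pEF libraries 1 and 2, and its log2 fold was 2.10 ± 0.52 (SE, limma adjusted p = 0.00197) as deposited and 1.59 ± 0.33 (adjusted p = 0.00434) after scaling. MRE11 had 4.46, 10.5, 8.14 and 5.82 TPM in pgEpiSC libraries 1 to 4, against 1.24 and 1.95 TPM in pEF libraries 1 and 2, and its log2 fold was 1.62 ± 0.56 (SE, limma adjusted p = 0.0266) as deposited and 1.20 ± 0.20 (adjusted p = 0.00136) after scaling. Both genes were separated between the groups. RAD50 had 6.22, 17.2, 13.5 and 5.96 TPM in pgEpiSC libraries 1 to 4, against 5.45 and 6.82 TPM in pEF libraries 1 and 2, and its log2 fold was 0.60 ± 0.55 (SE, limma adjusted p = 0.434) as deposited and 0.06 ± 0.18 (adjusted p = 0.786) after scaling. Libraries 1 and 4 of pgEpiSC lay among the pEF values of RAD50. NBN had 11.6, 13.8, 13.2 and 10.5 TPM in pgEpiSC libraries 1 to 4, against 5.88 and 5.69 TPM in pEF libraries 1 and 2, and its log2 fold was 0.96 ± 0.52 (SE, limma adjusted p = 0.167) as deposited and 0.44 ± 0.37 (adjusted p = 0.337) after scaling. NBN was separated as deposited and overlapped after scaling. The MRE11 call as deposited was lost without pgEpiSC replicate 3 or either pEF library and that of RBBP8 without pEF replicate 1, at folds between 1.42 and 2.28.

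Of the classical end joining genes, XRCC6 and LIG4 were called lower in pgEpiSC after scaling, and XRCC5, PRKDC and TP53BP1 were not called as deposited or after scaling. Of the 5 members found, 0 were called in either direction as deposited, beside 18.0% of all tested genes higher and 9.43% lower. At an unadjusted p below 0.05 (limma), 0 of the 5 were higher as deposited. After scaling 0 were called higher and 2 lower, beside 28.6% and 29.8% of all tested genes, and at an unadjusted p below 0.05, 1 was higher and 2 lower, beside 31.7% and 31.9%. With 5 genes these counts lie near the shares of all tested genes. XRCC6 and XRCC5 encode Ku70 and Ku80, the ring that caps broken ends. XRCC6 had 1.68, 5.95, 3.66 and 1.82 TPM in pgEpiSC libraries 1 to 4, against 2.69 and 4.20 TPM in pEF libraries 1 and 2. Its groups overlapped as deposited, where libraries 1 and 4 of pgEpiSC fell below pEF, and the log2 fold was -0.15 ± 0.57 (SE, limma adjusted p = 0.870) as deposited and -0.63 ± 0.13 (adjusted p = 0.00460) after scaling. XRCC5 had 9.11, 21.7, 15.8 and 8.76 TPM in pgEpiSC libraries 1 to 4, against 5.83 and 7.50 TPM in pEF libraries 1 and 2. Libraries 1 and 4 of pgEpiSC lay just above pEF and libraries 2 and 3 well above it, and the log2 fold was 0.87 ± 0.53 (SE, limma adjusted p = 0.224) as deposited and 0.34 ± 0.19 (adjusted p = 0.166) after scaling. LIG4, the ligase that seals the joined ends, had 0.800, 2.89, 2.45 and 0.990 TPM in pgEpiSC libraries 1 to 4, against 1.42 and 2.54 TPM in pEF libraries 1 and 2. As for XRCC6, the groups overlapped as deposited and separated after scaling, with pgEpiSC below, and the log2 fold of LIG4 was -0.15 ± 0.52 (SE, limma adjusted p = 0.850) as deposited and -0.58 ± 0.14 (adjusted p = 0.00801) after scaling. PRKDC, the catalytic subunit of the DNA-dependent kinase, had 0.718, 3.23, 3.06 and 0.576 TPM in pgEpiSC libraries 1 to 4, against 0.281 and 0.589 TPM in pEF libraries 1 and 2, and its log2 fold was 0.87 ± 0.47 (SE, limma adjusted p = 0.161) as deposited and 0.57 ± 0.22 (adjusted p = 0.0528) after scaling. TP53BP1, which shields ends from resection and opposes BRCA1, had 2.29, 7.70, 6.09 and 2.36 TPM in pgEpiSC libraries 1 to 4, against 1.70 and 2.69 TPM in pEF libraries 1 and 2, and its log2 fold was 0.70 ± 0.58 (SE, limma adjusted p = 0.380) as deposited and 0.24 ± 0.15 (adjusted p = 0.195) after scaling. The libraries overlapped for both as deposited and separated after scaling, with pgEpiSC above. PRKDC passed the filter through pgEpiSC alone, which favoured this order. The lower calls of XRCC6 and LIG4 held in the 6 scaled fits with 1 library left out, and after rescaling to a total of 1000000 the fold was -0.99 for XRCC6, still called, and -1.01 for LIG4, not called (adjusted p = 0.0584). After quantile normalization XRCC5 and TP53BP1 were called higher (0.49 and 0.43), and without pgEpiSC replicate 4 so was PRKDC after scaling (0.71).

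Of PARP1, PARP2 and POLQ, PARP1 was called higher on both scales and the others on neither. PARP1, the main sensor of strand breaks that builds poly(ADP-ribose) chains, had 11.9, 60.2, 28.6 and 15.6 TPM in pgEpiSC libraries 1 to 4, against 1.48 and 3.70 TPM in pEF libraries 1 and 2. Library 2 of pgEpiSC was far above the others, and the lowest pgEpiSC library still lay above both pEF libraries. Its log2 fold was 2.87 ± 0.57 (SE, limma adjusted p = 0.000146) as deposited and 2.41 ± 0.25 (adjusted p = 0.000140) after scaling, and without pEF replicate 1 the fold as deposited was 2.41 and not called (adjusted p = 0.0883). PARP2, its lesser paralog, had 2.08, 3.38, 3.04 and 2.39 TPM in pgEpiSC libraries 1 to 4, against 0.713 and 1.39 TPM in pEF libraries 1 and 2, with a log2 fold of 0.87 ± 0.52 (SE, limma adjusted p = 0.217) as deposited and 0.54 ± 0.22 (adjusted p = 0.0631) after scaling. POLQ, the polymerase of microhomology-mediated joining, had 0.634, 1.27, 2.09 and 0.540 TPM in pgEpiSC libraries 1 to 4, against 0.134 and 0.682 TPM in pEF libraries 1 and 2. The POLQ groups overlapped, and the log2 fold was 0.57 ± 0.40 (SE, limma adjusted p = 0.290) as deposited and 0.38 ± 0.20 (adjusted p = 0.144) after scaling. PARP2 was called higher after scaling without pgEpiSC replicate 2 (0.64).

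The share of the listed TPM that each role group held removes the column sum of a library, though not the spread of the median-ratio factors around it. Summed over its members and expressed per 1000000 listed TPM, the BRCA proteins held 59.5 to 89.8 in the pgEpiSC libraries and 17.6 and 24.6 in the pEF libraries. RecQ helicases held 80.8 to 131 in the pgEpiSC libraries and 16.7 and 21.9 in the pEF libraries, the Fanconi genes 139 to 227 in the pgEpiSC libraries and 47.3 and 67.7 in the pEF libraries, and mismatch repair 159 to 213 in the pgEpiSC libraries and 61.3 and 80.5 in the pEF libraries. In these 4 groups every pgEpiSC library held a larger share than either pEF library. So it was for the recombination factors (86.5 to 160.4 in the pgEpiSC libraries and 56.4 and 51.6 in the pEF libraries) and the checkpoint genes (203 to 308 in the pgEpiSC libraries and 98.6 and 139 in the pEF libraries). Sensing and resection held 208 to 261 in the pgEpiSC libraries and 169 and 130.2 in the pEF libraries, and the group of POLQ, PARP1 and PARP2, mostly PARP1, held 92.9 to 203 in the pgEpiSC libraries and 24.9 and 39.6 in the pEF libraries. End joining was the group whose shares overlapped, with 87.3 to 149 in the pgEpiSC libraries and 127 and 120.3 in the pEF libraries. These sums are a description, and the difference between role groups was not tested.

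**Figure D3:**
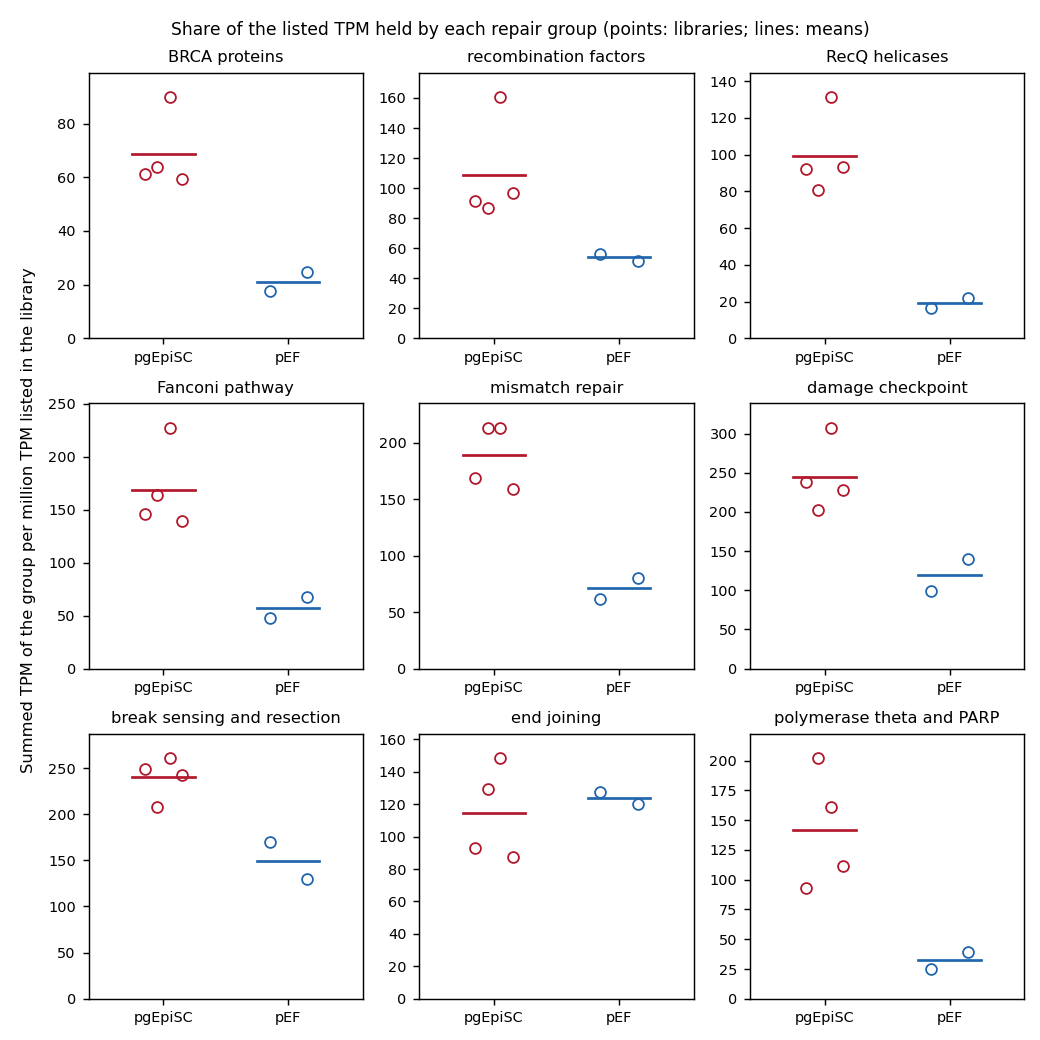
Summed TPM of each role group per 1000000 TPM listed in the library, for the 4 pgEpiSC libraries (left) and the 2 pEF libraries (right); points are libraries and lines are group means. The shares separate the groups in 8 panels and overlap for end joining.

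A factor common to all genes of a library cancels in the ratio of a pair of genes, and 12 pairs, chosen after values had been seen, are given as a description with no test. The groups did not overlap for 9 of the 12 ratios. The share of other gene pairs that separate the groups was not computed, so this count has no background. Among all tested single genes, pgEpiSC lay wholly above pEF for 36.6% and wholly below for 12.9% as deposited. After scaling these shares were 36.3% and 34.6%. With 4 and 2 libraries an exact permutation test of 1 ratio could not go below p = 0.0667. ATR to ATM was 2.67, 2.21, 1.98 and 2.69 in pgEpiSC libraries 1 to 4, against 0.496 and 0.460 in pEF libraries 1 and 2. ATR thus exceeded ATM in every pgEpiSC library and was below ATM in both pEF libraries. BRCA1 to TP53BP1, the pair that opposes resection and end protection, was 1.55, 0.927, 1.04 and 1.47 in pgEpiSC libraries 1 to 4, against 0.300 and 0.389 in pEF libraries 1 and 2. MSH6 to MSH3, the alternative MutS subunits, was 9.92, 8.73, 6.41 and 8.01 in pgEpiSC libraries 1 to 4, against 2.66 and 3.82 in pEF libraries 1 and 2. Both ratios were higher in each pgEpiSC library than in either pEF library. MRE11 to RAD50 was 0.716, 0.608, 0.602 and 0.976 in pgEpiSC libraries 1 to 4, against 0.228 and 0.286 in pEF libraries 1 and 2, and FANCI to FANCD2 was 0.515, 0.622, 0.792 and 0.521 in pgEpiSC libraries 1 to 4, against 0.303 and 0.305 in pEF libraries 1 and 2. XRCC6 to XRCC5, the Ku subunits, was 0.184, 0.274, 0.231 and 0.208 in pgEpiSC libraries 1 to 4, against 0.462 and 0.559 in pEF libraries 1 and 2, the one ratio of the 9 that was lower in pgEpiSC. Ku70 transcripts were thus fewer than Ku80 transcripts in all 6 libraries. PARP1 to PARP2, BLM to WRN and BRCA1 to BARD1 averaged 9.87 ± 5.53, 1.12 ± 0.0933 and 2.46 ± 0.318 in pgEpiSC (SD, 4 libraries), against 2.38 ± 0.421, 0.509 ± 0.304 and 1.42 ± 0.244 in pEF (SD, 2 libraries). CHEK1 to CHEK2, PMS2 to PMS1 and RAD54L to RAD54B overlapped between the groups.

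**Figure D4:**
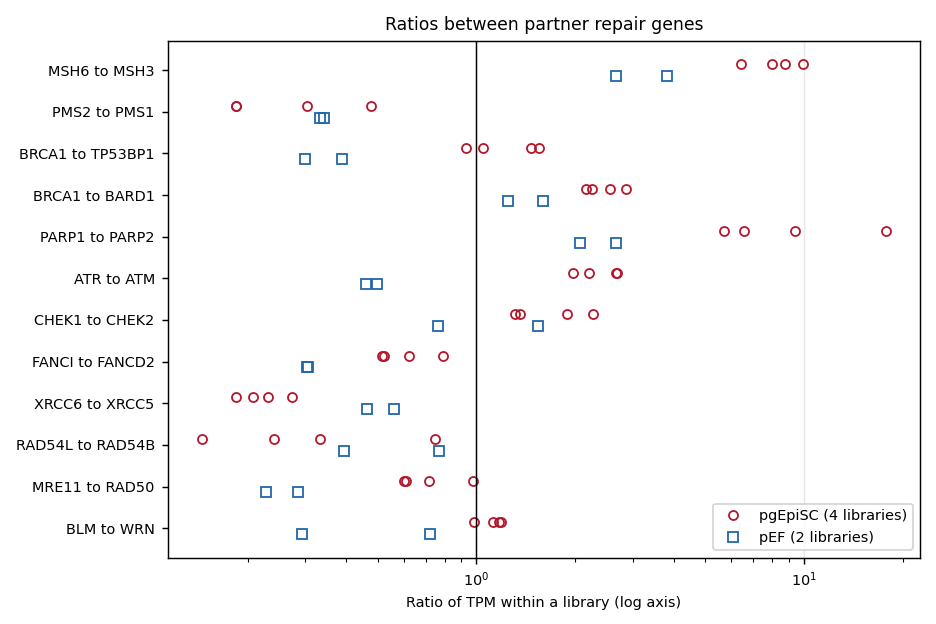
Ratio of TPM between 12 pairs of partner genes within each library (log axis); circles are the 4 pgEpiSC libraries and squares the 2 pEF libraries. Circles lie right of the squares for 8 ratios, left of them for XRCC6 to XRCC5, and among them for PMS2 to PMS1, CHEK1 to CHEK2 and RAD54L to RAD54B.

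Other genes of the same pathways, listed by function, are read beside 18.0% of all tested genes called higher as deposited and 28.6% after scaling. Of 31 tested genes of recombination and the Fanconi pathway, 12 were called higher and 0 lower as deposited, and 20 and 2 after scaling. MND1, which helps the recombinase pair homologs, had 19.9, 31.8, 26.00 and 22.2 TPM in pgEpiSC and 0.547 and 1.83 TPM in pEF (log2 fold 3.61 as deposited and 3.26 after scaling), and RMI1, a subunit of the BLM complex, had 9.46, 15.2, 13.1 and 11.05 TPM in pgEpiSC and 0.851 and 1.60 TPM in pEF (log2 fold 2.57 as deposited and 2.18 after scaling). Of 13 other mismatch repair and replication factors, 8 were called higher and 0 lower as deposited, and 11 and 0 after scaling, among them RFC3, a clamp loader subunit (log2 fold 2.83 as deposited and 2.34 after scaling). Of 14 other checkpoint genes, 3 and 0 were called as deposited and 9 and 0 after scaling, the first count near that of all tested genes, with TIMELESS and HUS1 among them at 1.91 and 1.90 as deposited. Of 11 other end joining genes, 1 was called higher and 0 lower as deposited, a share below that of all tested genes, and 7 and 2 after scaling. That 1 gene was RIF1, an effector of TP53BP1, with 13.1, 23.5, 22.6 and 12.6 TPM in pgEpiSC and 2.58 and 4.48 TPM in pEF (log2 fold 2.04 as deposited and 1.55 after scaling). The 7 higher calls of this wider list after scaling stand beside 0 of 5 for the end joining members above.

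Repair routes outside recombination gave a mixed picture. Of 12 tested base excision genes, 5 were called higher and 0 lower as deposited and 7 and 1 after scaling, with the uracil glycosylase UNG at 6.60, 20.3, 12.01 and 7.00 TPM in pgEpiSC and 1.48 and 2.32 TPM in pEF and NEIL3, a glycosylase of replicating cells, at 4.10, 9.67, 9.76 and 4.30 TPM in pgEpiSC and 0.499 and 1.80 TPM in pEF. Of 16 nucleotide excision genes, 1 was called higher and 0 lower as deposited and 2 and 2 after scaling, fewer than the background on both scales. Median log2 folds were 1.21 as deposited and 0.75 after scaling for base excision and 0.53 as deposited and 0.07 after scaling for nucleotide excision, beside 0.48 and 0.06 for all tested genes. The members' 5 end joining genes had medians of 0.70 as deposited and 0.24 after scaling.

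**Figure D5:**
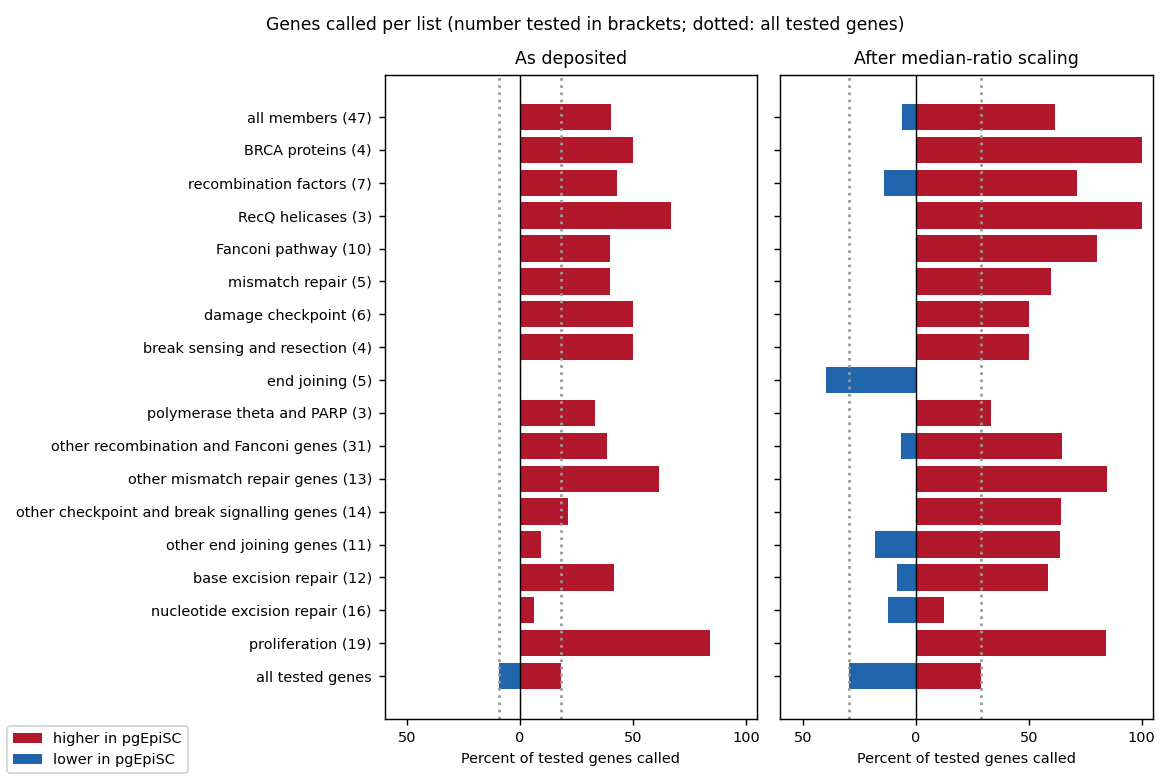
Percent of tested genes called higher (right of 0) or lower (left of 0) in pgEpiSC, as deposited and after median-ratio scaling, for all 47 members, the 9 role groups and the other lists, with all tested genes as the last row and dotted lines. End joining has no higher call in either panel, nucleotide excision repair stays under the dotted line of higher calls, and proliferation genes reach 84.2% in both.

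Genes of the cell cycle were higher in pgEpiSC as well. Of 19 tested proliferation genes, 16 were called higher and 0 lower in pgEpiSC on both scales, with a median log2 fold of 2.18 as deposited and 1.84 after scaling. Beside them, 18.0% of all tested genes were higher and 9.43% lower as deposited, and 28.6% and 29.8% after scaling. Their summed level was 243, 613, 433 and 257 TPM in pgEpiSC libraries 1 to 4, against 36.6 and 83.3 TPM in pEF libraries 1 and 2. Per 1000000 listed TPM this was 1543 to 2070 in the pgEpiSC libraries and 391 and 572 in the pEF libraries. The mitotic cyclin CCNB1 had 29.1, 58.2, 46.2 and 32.5 TPM in pgEpiSC and 1.14 and 5.25 TPM in pEF, TOP2A, a topoisomerase of dividing cells, had 34.9, 56.1, 65.01 and 37.9 TPM in pgEpiSC and 2.17 and 7.64 TPM in pEF, and the origin licensing factor MCM2 had 10.4, 45.7, 20.3 and 9.53 TPM in pgEpiSC and 0.880 and 2.41 TPM in pEF. None of the 20 genes of this list that were found was at 0 in a whole group. The part of cycling cells in the level of the repair genes was not tested.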

How the data were processed

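Directional libraries of rRNA-depleted total RNA (4 pgEpiSC, 2 pEF) were made, per the labels' protocols. The submitters' processing notes list STAR 2.6.0c and kallisto 0.44.0 without a role, and name no annotation used here. The deposited values are the authors' TPM, by the name of their table, for 20132 Ensembl genes, of which 14062 had a symbol in the gene name table; rows with 1 symbol were summed. TPM carries no depth.

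The 10424 genes reaching 1 TPM in 2 or more libraries were fitted on log2(TPM + 1) with limma 3.58.1 (R 4.3.3), a 2-group design and moderated variances with a mean trend. Calls used Benjamini-Hochberg adjusted p-values, taken over every tested gene, at 0.05. The fit was repeated after median-ratio scaling and under the alternatives of the closing section, and was tested on simulated data. Members and lists were chosen with earlier results of these data known. Values are given in full for up to 4 members of each role group with the largest absolute fold and for all end joining and PARP members. Tables were made in Python 3.11.15 with pandas 2.3.3 and figures in matplotlib 3.10.9.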

Additional observations from a re-analysis of the deposited data

How the results depend on the processing

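Counts of calls differed with the scale, the filter and the libraries kept. As deposited, 1874 genes were higher and 983 lower in pgEpiSC, 19 and 0 of them repair genes. Genes higher numbered 967 with a pseudocount of 5, 787 with no filter, 1185 with a mean TPM of at least 5 (368 lower), 2984 with median-ratio scaling (3109 lower), 3374 with quantile normalization (2779 lower) and 2559 after rescaling to 1000000 (3609 lower). Repair genes higher numbered 11 under each of the first 3 settings (11 of the 16 still tested at a mean of 5, each of which kept its call or lack of one), 29 with median-ratio scaling (3 lower), 33 with quantile normalization (3 lower) and 25 after rescaling (2 lower). Leaving out 1 library gave 252 to 2270 higher and 555 to 1367 lower, with 1 to 23 repair genes higher and 0 lower. With scaling as well it gave 1896 to 3115 higher and 2624, 2635, 2826, 2906, 2957 and 3213 lower, with 26 to 32 repair genes higher and 3 to 4 lower. Without pgEpiSC replicates 2 and 3, 2306 were higher and 2503 lower (25 and 1 repair genes), and with scaling 3463 and 3270 (33 and 4). Without replicates 1 and 4, 5078 were higher and 929 lower (41 and 0), and with scaling 2772 and 2753 (30 and 2). Same-numbered libraries correlated in their deviations at 0.098 and 0.17 for the 2 pairs, which share only a number; the replicate block gave 2204 higher and 893 lower (20 and 0 repair genes), and 2376 and 2583 (28 and 2) with scaling. The cause of these shifts was not tested. ATM, not called as deposited (0.13), was lower with scaling without pgEpiSC replicate 3 (-0.47) and without replicates 2 and 3 (-0.41). Fits with 1 pEF library take their spread from pgEpiSC alone. TPM keeps no depth, so what sampling of reads limits cannot be given.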

Other observations

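The repair genes given here lie outside the 47 members and were picked after their values were seen. MSH4, a MutS protein known from meiotic crossing over in mammals, had 29.8, 37.8, 42.2 and 31.04 TPM in pgEpiSC libraries 1 to 4, against 9.26 and 10.9 TPM in pEF libraries 1 and 2. It was called higher on both scales (log2 fold 1.70 ± 0.49 (SE, limma adjusted p = 0.00790) as deposited and 1.15 ± 0.38 (adjusted p = 0.0306) after scaling). The meiotic recombinase DMC1 stayed at or under 0.115 TPM in the pgEpiSC libraries. MND1 and PSMC3IP, which form one complex, were both called higher on both scales, PSMC3IP with 3.30, 9.87, 6.78 and 3.31 TPM in pgEpiSC and 0.402 and 0.801 TPM in pEF.

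SFR1 and SWI5, partners in a complex that aids the strand-exchange recombinase, were called in opposite directions after scaling. SFR1 had 8.50, 17.4, 13.3 and 11.6 TPM in pgEpiSC libraries 1 to 4, against 1.10 and 2.61 TPM in pEF libraries 1 and 2, with a log2 fold of 2.27 ± 0.54 (SE, limma adjusted p = 0.00146) as deposited and 1.86 ± 0.27 (adjusted p = 0.000793) after scaling. SWI5 had 1.41, 4.63, 2.97 and 1.56 TPM in pgEpiSC libraries 1 to 4, against 3.18 and 5.77 TPM in pEF libraries 1 and 2, with a log2 fold of -0.63 ± 0.57 (SE, limma adjusted p = 0.417) as deposited and -1.12 ± 0.13 (adjusted p = 0.000245) after scaling. XPC and DDB2, the damage sensors of global nucleotide excision repair, were called lower after scaling, at log2 folds of -0.61 as deposited and -1.15 after scaling for XPC and -0.31 as deposited and -0.71 after scaling for DDB2.

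In the RefSeq table the spans of MSH4, MND1 and DDB2 overlap no other gene, whereas PSMC3IP overlaps MLX, SFR1 overlaps CFAP43, SWI5 overlaps GOLGA2 and XPC overlaps LSM3 and TMEM43.

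No pgEpiSC library stood outside the other 3 by Dixon's test in the 59 sets of 4 values screened (47 members and 12 ratios).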
